A study of Mus musculus with 16 samples.

Results

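Cytosolic ribosomal protein genes were compared between 2 populations of lymph node macrophages, from nodes that drain a tumour and from nodes that do not. The genes were chosen by name: mouse symbols that begin with Rpl, Rps or Rplp and a number, and Rpsa, leaving out the Rps6k kinases and the pseudogenes named with -ps, with at least 10 counts over all columns. Of 55423 genes listed, 93 carried such a name and 91 passed the count minimum; Rps12l1 and Rpl10l had no count. Of the 91 genes, 77 encode proteins of the ribosome itself (43 of the large subunit, 31 of the small subunit and 3 of the stalk). Another 6 are paralogues or expressed retrocopies (Rpl3l, Rpl22l1, Rpl36al, Rpl39l, Rps27l and Rps27rt), 6 are annotated as pseudogenes without -ps in their names (Rpl32l, Rpl6l, Rps3a2, Rps3a3, Rpl37rt and Rps4l), and 2 are only named after a ribosomal protein (Rpl7l1 and Rps19bp1). All 91 were among the 21085 genes tested, and 90 were detected in every column.

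The cytosolic ribosome translates the mRNAs of the nuclear genome, and each of its proteins is present in a fixed number of copies, so their genes are usually expressed in balance. Most of their mRNAs begin with a C followed by an unbroken stretch of pyrimidines, the TOP motif, through which the kinase mTORC1 controls how much of them is translated. A few proteins have paralogues that can take their place in the ribosome or act outside it, and several others, such as Rpl5 and Rpl11, bind Mdm2 and thereby take part in p53 regulation.

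The animals were male C57B/6 mice that carried MOC2, a mouse squamous carcinoma line made with a chemical carcinogen, of which 500000 cells were placed in the skin of the flank. After 2 weeks, tumour-draining nodes (tdLN) and non-draining nodes (ndLN) were taken from tumour-bearing mice, so no group comes from a mouse without a tumour. Each pool joined 2 mice, with 2 tdLN and 6 ndLN. By the study's methods, every pool gave cells from both kinds of node, so both kinds came from the same mice. The labels number the nodes 1 and 2 and do not state whether equal numbers mark the same mice. From each pool, CD11b+ CD169+ cells without CD3, B220 or Ly6G were sorted into subcapsular sinus macrophages (SSM, CD11c- with low side scatter) and medullary sinus macrophages (MSM, CD11c+ with high side scatter). That gives 4 groups (SSM ndLN, SSM tdLN, MSM ndLN and MSM tdLN) of 2 libraries, each from 1 pool and read on 2 lanes, with 42972328 to 48130352 counts per library. The sorting markers limit what each group stands for: markers of other cells were present in both subsets and differed between them. A gene was called at an adjusted p under 0.01 (edgeR) and a mean normalized count over 100. Between SSM and MSM, 12.1% of all genes tested were called in either direction in ndLN and 8.68% in tdLN. Of 8 NK and cytotoxic cell genes, all 8 were called higher in SSM in both nodes, with a summed level of 43336 to 72384 normalized counts in SSM and 988 to 3245 in MSM. Of 11 innate-like lymphoid genes all 11 were called higher in SSM in both nodes. Of 11 T cell genes 10 were called higher in ndLN and 9 in tdLN, with 1 (Cd8a) called lower in each. Of 11 basophil and mast cell genes 8 were called higher in each node, with 1 (Kit) called lower in tdLN. Of 9 dendritic cell genes, 7 were called lower in ndLN and 8 in tdLN. Of 9 B cell genes, 0 were called higher and 1 lower in ndLN, and 1 higher and 1 lower in tdLN. Their summed level was 7113 to 9087 in SSM ndLN and 21678 to 22344 in SSM tdLN. In MSM it was 12619 to 38197 in ndLN, far apart between the pools, and 13390 to 13548 in tdLN. Summed macrophage markers lay between 106900 and 122460 in MSM and between 136510 and 537170 in SSM. Of these 11 markers, 4 were called higher and 2 lower (Mertk and Cd68) in SSM of ndLN, and 5 higher and 0 lower in tdLN. The part of these other cells in the values that follow was not tested, and in sorted bulk samples fewer cells of a type and less RNA per cell cannot be told apart.

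Several of the start sites are shown first. They are those of the genes that passed the test (Rpl4 and Rps27l), the parent paralogue of Rps27l (Rps27) and the mTORC1-linked phosphoprotein gene Rps6. These differ in where the TOP-like stretch lies relative to the RefSeq start. Each line gives 50 bases before and 25 bases from the RefSeq start on, 5′ to 3′, from GRCm38.p6; capitals mark the longest unbroken run of C and T that begins with C, where it reached 6 bases and overlapped the window from 10 bases before to 15 bases after the start.
Rpl4, chr9:64173337-64173411, plus strand: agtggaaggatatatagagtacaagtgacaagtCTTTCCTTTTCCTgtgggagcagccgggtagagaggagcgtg
Rps27l, chr9:66946036-66946110, plus strand: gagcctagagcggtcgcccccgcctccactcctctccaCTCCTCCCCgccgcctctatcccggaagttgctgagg
Rps27, chr3:90213624-90213698, minus strand: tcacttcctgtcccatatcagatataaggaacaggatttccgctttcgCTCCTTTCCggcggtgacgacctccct
Rps6, chr4:86857343-86857417, minus strand: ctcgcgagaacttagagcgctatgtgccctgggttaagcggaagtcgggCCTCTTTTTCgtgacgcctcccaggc
In Rps6 and Rps27 the run, of 10 and 9 bases, spans the RefSeq start shown. In Rpl4 and Rps27l, with 13 and 9 bases, it ends before that start. The start of Rpl4 in the GENCODE annotation, chr9:64173375, lies within the run, so its place depends on the annotation. A second RefSeq start window of Rps27l, chr9:66946363-66946437, held no run of 6 bases. RefSeq start windows were matched for 67 of the 91 genes. Such a run was found in 41 of them (61.2%) and in 29.4% of the 27025 genes of the whole promoter table. The ETS-type sequence CCGGAAG, read on both strands of the 300-base windows, was found in 38.8% of the ribosomal protein genes and 9.93% of all genes. TATAAA was found in 11.9% and 15.7%, and CACGTG in 8.96% and 8.09%. These matches describe the letters only. Between SSM and MSM, the 36 subunit genes with a run and the 21 without had median log2 fold changes of -0.46 and -0.48 in ndLN and of -0.50 and -0.47 in tdLN.

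Levels within the set spanned a wide range. By normalized count (TMM-scaled, on the scale of 1 lane), Rpl4, a large subunit protein at the exit tunnel, was highest with a mean of 19664 over the 8 libraries. The stalk base Rplp0 had 17074, Rps3 had 12374 and Rpl13 had 11857. Per kilobase of transcript the order was different: the short Rps27 came first with 20277, then Rpl13 with 15202, Rps29 with 14520, Rpl4 with 12786 and Rplp0 with 12573. The top 5 genes held 19.2% of the counts of the set. The 74 subunit genes with a mean over 100 had a median of 4153 normalized counts. The 3 subunit genes below that level were Rpl24 with a mean of 13.1, Rps10 with 32.3 and Rpl23a with 73.5; for these, 81.7%, 56.8% and 85.7% of the 50-base stretches of the transcript occur also in another annotated gene, so that reads may have gone uncounted or to the other gene. Over the 77 subunit genes the median of that percentage was 51.7%, and the way such reads were treated is not given in the sources used here.

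As a share of all counts the set was small and varied as much between the 2 pools of a group as between groups. In SSM of ndLN the 91 genes held 1.82% of the counts in pool 1 and 1.19% in pool 2. In SSM of tdLN they held 1.35% and 1.62%. In MSM of ndLN they held 1.54% and 2.03%, and in MSM of tdLN 1.80% and 2.33%. The 95% exact binomial interval of each share was at most 0.00853 percentage points wide. It covers counting error only, so the spread between pools was far wider than counting. Group means were 1.51% ± 0.441 (SSM ndLN), 1.49% ± 0.188 (SSM tdLN), 1.78% ± 0.347 (MSM ndLN) and 2.06% ± 0.378 (MSM tdLN; SD, n = 2 each). Both SSM tdLN libraries lay below both MSM tdLN libraries, whereas SSM and MSM overlapped in ndLN. That overlap holds for library totals: with TMM effective library sizes the shares were 1.61% and 1.04% in SSM ndLN and 1.71% or more in MSM ndLN, so that SSM lay below MSM there too. The order of the SSM groups also turned, with a mean of 1.32% in ndLN and 1.51% in tdLN. On library totals, the share in SSM was 1.18 times that in MSM in pool 1 of ndLN and 0.588 times in pool 2, and 0.754 and 0.695 times in the pools of tdLN. Counts on large subunit and stalk genes stood to those on small subunit genes at 1.32 to 1.52 in the 8 libraries, highest in SSM ndLN pool 2. Counts of mitochondrially encoded genes moved alongside within groups: 0.681% and 0.290% in SSM ndLN, 0.383% and 0.422% in SSM tdLN, 0.237% and 0.467% in MSM ndLN, and 0.386% and 0.475% in MSM tdLN.

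**Figure D1:**
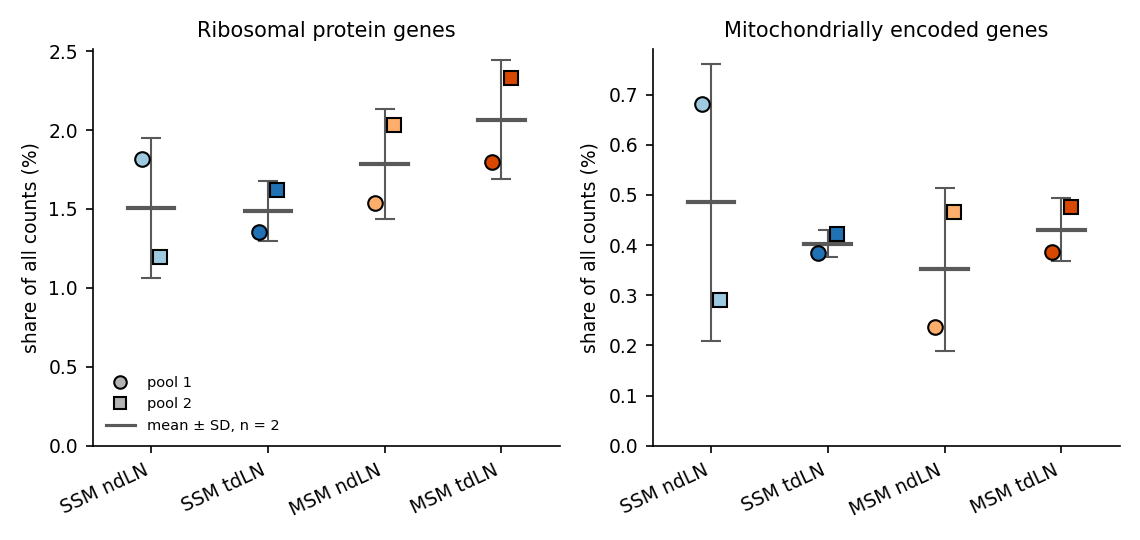
Share of all counts on the 91 ribosomal protein genes (left) and on mitochondrially encoded genes (right), in percent, for each library (circle, pool 1; square, pool 2) with the group mean and SD (n = 2). The SSM ndLN libraries (1.82% and 1.19%) lie farther apart than the lowest and highest group means (1.49% and 2.06%), and in each of the other groups pool 2 lies above pool 1 in both panels.

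The pools differed across nearly the whole set at once. In SSM ndLN, 87 of the 91 genes were higher in pool 1, with a median difference of 0.69 on the log2 scale. In the other 3 groups pool 2 was higher, in 84 genes of SSM tdLN (median of pool 1 minus pool 2, -0.23), 87 of MSM ndLN (-0.36) and 86 of MSM tdLN (-0.44), while the median over all genes tested was 0.00 in each group. Of the 77 subunit genes, 73 had their lowest value of the 8 libraries in SSM ndLN pool 2, and 72 had their highest in MSM tdLN pool 2. Relative to the mean of the 8 libraries, the median subunit gene lay at -0.70 in SSM ndLN pool 2, at 0.58 in MSM tdLN pool 2 and between -0.25 and 0.33 in the other 6.

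**Figure D2:**
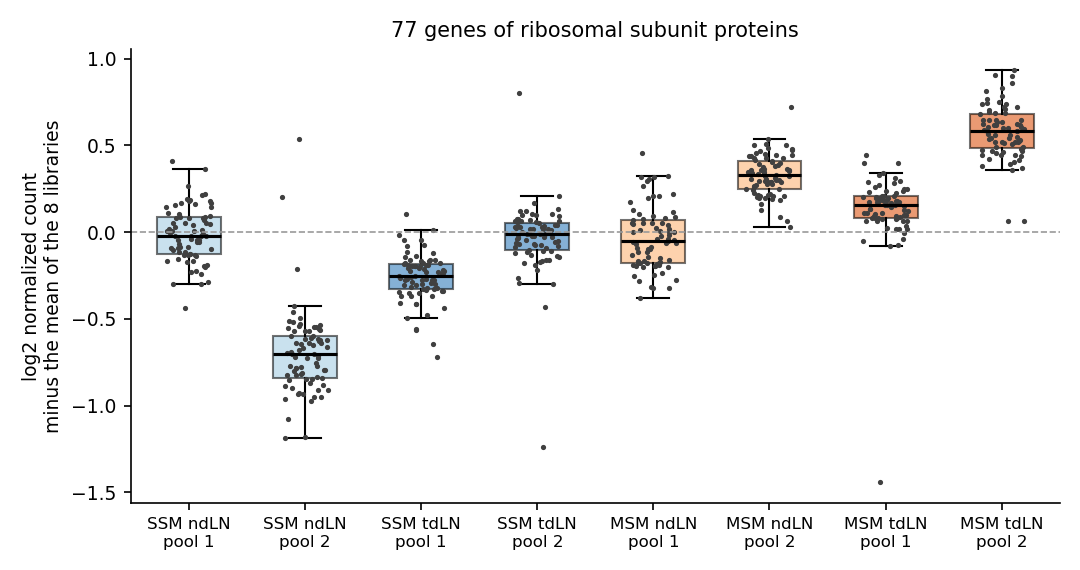
log2 normalized count of each of the 77 subunit genes minus its mean over the 8 libraries; points are genes, boxes the quartiles and whiskers reach 1.5 times the box height. The whole set shifts from library to library: the median is -0.70 in SSM ndLN pool 2 and 0.58 in MSM tdLN pool 2.

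Short transcripts of other genes shifted in the same direction between pools. Among other protein-coding genes with a mean over 100, the median difference of pool 1 minus pool 2 in SSM ndLN was 0.49 for the 77 with transcripts under 600 bases, 0.12 for the 459 from 900 to under 1200 bases and -0.07 for the 4039 from 2000 to under 4000 bases. In MSM tdLN the medians for those lengths were -0.35, -0.14 and 0.09. At every one of these lengths the ribosomal protein genes lay farther out: 0.79, 0.72 and 0.54 in SSM ndLN and -0.49, -0.42 and -0.34 in MSM tdLN, with only 5 of them in the longest of these classes. Subunit transcripts are short, with a median length of 886 bases. The part of transcript length, of RNA quality or of other cells in the differences between pools was not tested.

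**Figure D3:**
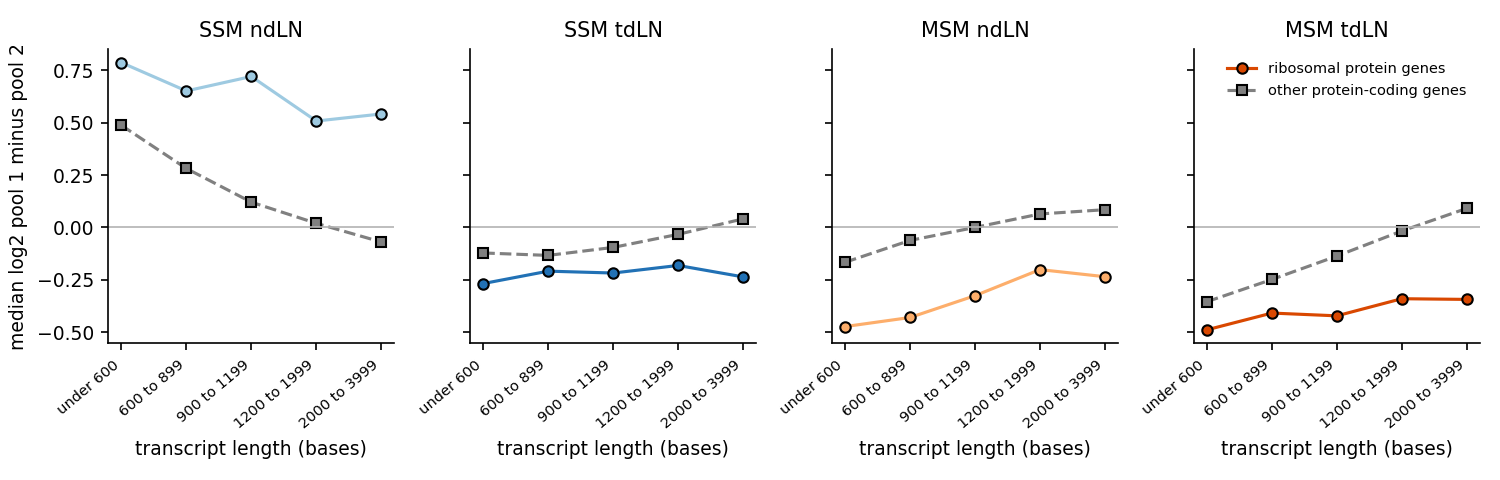
Median log2 difference of pool 1 minus pool 2 by transcript length, for ribosomal protein genes (coloured circles) and other protein-coding genes with a mean over 100 (grey squares), 1 panel per group. In SSM ndLN both lines are highest for short transcripts (0.79 and 0.49 under 600 bases), in MSM of both nodes both are lowest there, and the ribosomal protein genes lie beyond the other genes at each length plotted, which ends below 4000 bases; the 1 ribosomal protein gene with a longer transcript is not plotted.

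Between SSM and MSM of tdLN, most ribosomal protein genes were lower in SSM, by modest amounts. The fitted log2 fold change was below 0 in 87 of 91 genes, with a median of -0.49 beside 0.02 for all genes tested. In 76 of the 91 both SSM libraries lay below both MSM libraries, while 27.1% of all genes tested were separated that way, and in 2 both lay above, against 29.5% of all genes. The separated genes were 35 of the 43 large subunit genes, 28 of the 31 small subunit genes, all 3 stalk genes and 10 others. Within pool 1 the median difference was -0.38 and within pool 2 -0.57, with 87 genes below 0 in each. By edgeR's quasi-likelihood test (adjusted p under 0.01 and mean normalized count over 100), 2 of the 91 were called, both lower, while 8.68% of all genes were called and 3.52% were called lower. At an adjusted p under 0.05 there were 7, all lower, against 16.8% of all genes in either direction. Fitted on the tdLN libraries alone, 7 genes were called, all lower, and 54 had an adjusted p under 0.05, beside 3.57% and 20.2% of all genes. On all groups, 8 were called without either one of the SSM ndLN pools, all lower, beside 3.79% and 3.78% of all genes called lower. Without any one of the 4 tdLN libraries 0 were called, beside 2.40% to 3.41% of all genes in either direction. The SE of a fold change had a median of 0.27, and the spread used here is set in part by SSM ndLN, where the pools lay far apart.

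Between SSM and MSM of ndLN the result rested on which SSM pool was taken. The median log2 fold change was -0.43 (0.09 for all genes tested), with 82 of 91 below 0. In pool 1 the median difference of SSM from MSM was 0.05, with 39 genes below 0, and in pool 2 it was -0.99, with 86 below 0. Both SSM libraries lay below both MSM libraries in 38 genes, and 26.5% of all genes tested were separated that way. The test called 2 of the 91, both lower, while it called 12.1% of all genes and 6.06% as lower, and 10 had an adjusted p under 0.05, beside 23.4% of all genes. Without SSM ndLN pool 1, 48 of the 91 were called lower (median -0.98), beside 3.85% of all genes. SSM ndLN then holds the 1 library that is lowest in most of the set, and its spread is assumed to be that of the other groups, so this is not a replicated difference. Without SSM ndLN pool 2, 2 were called lower, beside 3.72%, and the median was 0.03. Scaling mattered as well: with library totals in place of TMM the median of the set moved to -0.15 and that of all genes to 0.36, so that the set lay 0.50 below all genes, as against 0.53 with TMM. Over the 91 genes the changes of ndLN and tdLN, which share no library, had a Pearson's r of 0.69 and a Spearman's rho of 0.65 across genes, which are not independent of each other since they share 8 libraries and their scaling.

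**Figure D4:**
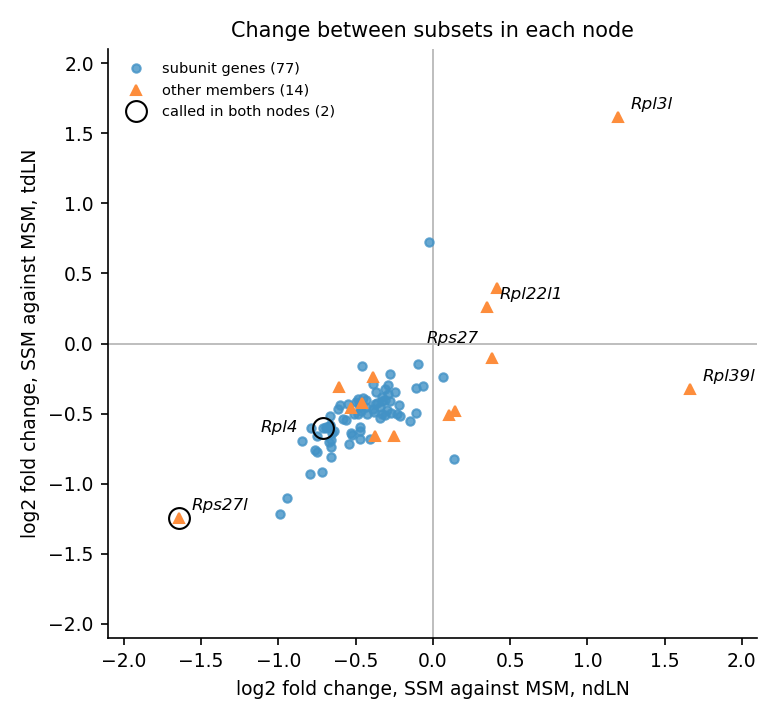
Fitted log2 fold change of SSM against MSM in ndLN (horizontal) and in tdLN (vertical) for the 77 subunit genes (blue circles) and the 14 other genes of the set (orange triangles), with the 2 genes called in both nodes ringed. Subunit genes crowd at about -0.46 and -0.50, their medians, with Rps27l farther down on both axes and Rpl3l, Rpl22l1 and Rpl39l to the right of 0.

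Rps27l, a p53-inducible paralogue of the small subunit protein gene Rps27 (ENSMUSG00000036781, chr9:66946086-66949516, plus strand, GRCm38), had the largest fall that passed the test. Its normalized counts were 2457 and 2239 in SSM ndLN, 3133 and 3930 in SSM tdLN, 6948 and 7849 in MSM ndLN, and 7110 and 9681 in MSM tdLN. All 4 SSM libraries lay below all 4 MSM libraries. The log2 fold change of SSM against MSM was -1.64 (SE 0.16, adjusted p = 0.00039, edgeR) in ndLN and -1.25 (SE 0.16, adjusted p = 0.0018, edgeR) in tdLN. In ndLN it was called with any 1 library left out. In tdLN it was called when an ndLN library was left out and not when any of the 4 tdLN libraries was, with log2 fold changes of -1.08 to -1.40. Within SSM, tdLN stood 0.57 above ndLN on the log2 scale (adjusted p = 0.072, edgeR), and the difference between the nodes in the SSM-to-MSM change did not pass the test (log2 0.40, adjusted p = 0.57, edgeR).

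The parent gene Rps27 (ENSMUSG00000090733, chr3:90212522-90213651, minus strand) was not called in either node. Its counts were 8765 and 4588 in SSM ndLN, 6060 and 7478 in SSM tdLN, 5239 and 7824 in MSM ndLN, and 6440 and 9569 in MSM tdLN, with SSM and MSM overlapping in both nodes. The log2 fold changes were 0.07 (SE 0.34, adjusted p = 0.93) in ndLN and -0.24 (SE 0.34, adjusted p = 0.72, both edgeR) in tdLN. With SEs of that size, a fall of Rps27 cannot be told from no change. The ratio of Rps27l to Rps27 counts was 0.280 to 0.526 in the 4 SSM libraries and 1.00 to 1.33 in the 4 MSM libraries. This ratio was not tested. Both genes encode nearly the same protein from different loci, but 98.6% of the 50-base stretches of Rps27 occur in other annotated genes and 22.4% of those of Rps27l, so the level of Rps27 is less certain than that of Rps27l.

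Rpl4 (ENSMUSG00000032399, chr9:64173375-64178666, plus strand), the gene of highest count, was the other one called. It had 15694 and 14235 normalized counts in SSM ndLN, 15189 and 15971 in SSM tdLN, 23913 and 25076 in MSM ndLN, and 22480 and 24756 in MSM tdLN. The pools lay close together in every group and SSM lay below MSM throughout. The log2 fold change was -0.71 (SE 0.11, adjusted p = 0.0034, edgeR) in ndLN and -0.60 (SE 0.11, adjusted p = 0.0097, edgeR) in tdLN, which is near the threshold: with 1 library left out Rpl4 was called in 1 of 8 fits for ndLN (without SSM ndLN pool 1) and in 2 of 8 for tdLN (without either SSM ndLN pool), with adjusted p between 0.0043 and 0.15. The log2 fold change stayed between -0.83 and -0.53 in those fits. It is of the size seen across the set. When libraries were scaled on the summed counts of the ribosomal protein genes, Rpl4 stood at -0.14 and -0.08 and Rps27l at -1.10 and -0.72. None of the 91 was called. That scaling brings the set near 0 by its design (medians 0.08 and 0.04), and Rpl4 is part of the sum. The smaller changes are therefore not a separate result.

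**Figure D5:**
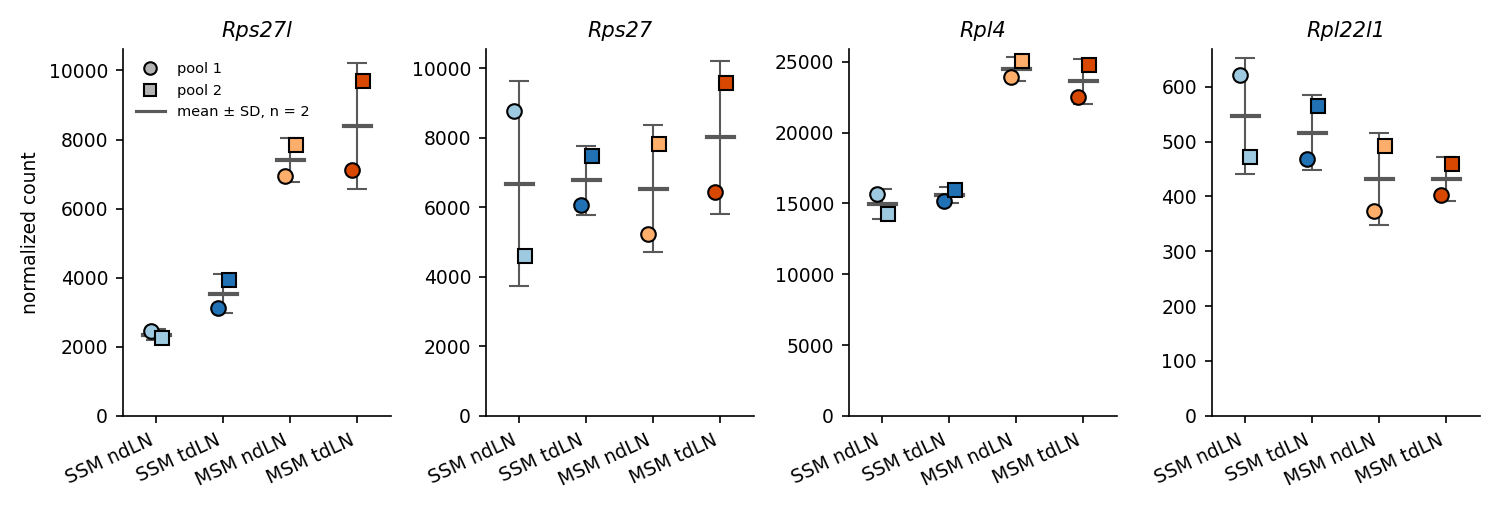
Normalized count of Rps27l, Rps27, Rpl4 and Rpl22l1 in each library (circle, pool 1; square, pool 2) with the group mean and SD (n = 2). Rps27l and Rpl4 separate SSM from MSM in both nodes, Rps27 does not, and Rpl22l1 overlaps in ndLN (472 to 622 in SSM, 372 to 492 in MSM).

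Other genes with an adjusted p under 0.05 in both nodes were picked after their values were seen. Among them are Rps6, the small subunit protein that the S6 kinases phosphorylate, and Rpl13a and Rpl14. Rps6 had 5219 and 4169 counts in SSM ndLN, 4610 and 5112 in SSM tdLN, 7320 and 7462 in MSM ndLN, and 6829 and 8291 in MSM tdLN, with no overlap between subsets. It changed by -0.65 on the log2 scale in ndLN (adjusted p = 0.024) and by -0.64 in tdLN (adjusted p = 0.035, both edgeR). Rpl14 stood at -0.79 and -0.93. Rpl13a, known for a role in silencing inflammatory mRNAs after interferon-gamma, stood at -0.99 and -1.22, on only 125 to 372 counts per library, and 57.4% of its 50-base stretches occur in other annotated genes.

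The stalk recruits the GTPases of translation and consists of Rplp0, Rplp1 and Rplp2. Rplp0 had 15011 and 11266 counts in SSM ndLN, 14603 and 15959 in SSM tdLN, 18161 and 20424 in MSM ndLN, and 18875 and 22296 in MSM tdLN. Its log2 fold change of SSM against MSM was -0.55 in ndLN and -0.43 in tdLN (adjusted p = 0.052 and 0.14, edgeR). Rplp1 stood at -0.15 and -0.55 and Rplp2 at -0.30 and -0.47 in the same order, none called. Rpsa, a small subunit protein also known as the laminin receptor precursor, had 9507 and 5132 counts in SSM ndLN, 7018 and 8676 in SSM tdLN, 10664 and 13554 in MSM ndLN and 13048 and 16539 in MSM tdLN. Its SSM libraries lay below its MSM libraries in both nodes, at -0.72 on the log2 scale in ndLN (adjusted p = 0.13) and -0.91 in tdLN (adjusted p = 0.080, both edgeR). Rpl37a, one of the reference genes that the study used for comparing marker levels, ranged from 4220 to 8340 counts over the 8 libraries, and SSM and MSM overlapped in both nodes. Rps27a, made as a fusion with ubiquitin, had 4489 and 2532 counts in SSM ndLN, 4477 and 4958 in SSM tdLN, 4160 and 5656 in MSM ndLN, and 5565 and 7387 in MSM tdLN, separated in tdLN only and called in neither node. Rpl12, which forms the base of the stalk with Rplp0, ranged from 1887 to 4066 counts, and Rpl10, needed for the last step of large subunit maturation, from 4167 to 10812, neither of them called.

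Among the other paralogues, Rpl22l1 went the other way from its partner Rpl22, a large subunit protein with a role in lymphocyte development. Rpl22l1 had 622 and 472 counts in SSM ndLN, 468 and 564 in SSM tdLN, 372 and 492 in MSM ndLN, and 403 and 459 in MSM tdLN. Rpl22 had 1839 and 942, 1443 and 1768, 1714 and 2394, and 2170 and 3109 in the same order. Neither was called between subsets in either node: the log2 fold changes were 0.35 and 0.26 for Rpl22l1 and -0.54 and -0.71 for Rpl22 (adjusted p of 0.22 or above, edgeR). Their ratio was 0.319 to 0.501 in the 4 SSM libraries and 0.148 to 0.217 in the 4 MSM libraries, without overlap. The ratio was not tested. Of the 50-base stretches of Rpl22l1, 65.6% occur in other annotated genes, and 5.2% of those of Rpl22. The level of Rpl22l1, and with it the ratio, is therefore less certain than that of Rpl22. Rpl3l, the striated muscle paralogue of Rpl3, was barely detected, with 2.48 to 19.5 counts, beside 6597 to 12561 for Rpl3. Rpl36al had 61.3 to 108 counts beside 766 to 1832 for Rpl36a. The pseudogene Rps4l held 318 to 573 counts beside 2773 to 8143 for Rps4x, and 14.9% of its 50-base stretches occur elsewhere.

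Between nodes, no ribosomal protein gene was called. In SSM the median log2 fold change of tdLN against ndLN was 0.16 (-0.04 for all genes tested), with 76 of 91 above 0, 3 at an unadjusted p under 0.05 (23.0% of all genes) and 0 called, while 3.03% of all genes were called. With ndLN and tdLN paired by pool number, the pools disagreed, with medians of -0.24 in pool 1 and 0.69 in pool 2. DESeq2 called 0 as well, and without SSM ndLN pool 1 the count remained 0 in edgeR with a median of 0.77 and 47 genes at an adjusted p under 0.05, beside 7.43% of all genes. Without SSM ndLN pool 2 the median was -0.29. In MSM the median was 0.23, with 80 of 91 above 0 and pool medians of 0.20 and 0.29; 0 were called by edgeR or DESeq2, 1 had an unadjusted p under 0.05 (11.9% of all genes), and 0.0237% of all genes were called. Markers of other cells differed between the nodes in SSM as well: in tdLN 9 of 11 macrophage markers were called higher (summed level 136510 to 210520 in ndLN and 372540 to 537170 in tdLN), and 5 of 11 innate-like lymphoid and 3 of 11 T cell markers lower. Of 9 B cell markers, 2 were called higher in tdLN and 0 lower. The summed basophil and mast cell markers lay between 48791 and 71533 in ndLN and between 9410 and 19433 in tdLN, with 1 of 11 called higher and 2 lower. Their part in the SSM values was not tested. For MSM the median was -0.01 without MSM tdLN pool 2 and 0.08 without MSM ndLN pool 1. The difference between subsets in the change with drainage was called for 0 of the 91 by edgeR and DESeq2 (0 at an unadjusted p under 0.05 in edgeR, beside 12.3% of all genes, with a median of -0.05), while 0.0379% of all genes were called.

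Genes that work with the ribosome moved in part with the set. Fau, a ribosomal protein made as a fusion with a ubiquitin-like domain that the naming rule misses, had 1913 to 6492 counts and was not called in any comparison. Of 19 other mRNAs of translation with a TOP motif, 4 were called lower in SSM than MSM of ndLN and 3 in tdLN, and none higher. The list medians were -0.43 and -0.36. Of all genes tested, 6.06% were called lower in ndLN and 3.52% in tdLN, with medians over all genes of 0.09 and 0.02. The histone chaperone gene Nap1l1 had 1499 to 1889 counts in SSM and 4470 to 4968 in MSM, at -1.58 on the log2 scale in ndLN (adjusted p = 0.00023) and -1.40 in tdLN (adjusted p = 0.00057, both edgeR). Eef1b2, an exchange factor subunit of elongation factor eEF1A, had 1671 to 2191 in SSM and 4550 to 7033 in MSM, with -1.24 and -1.60 (adjusted p = 0.0047 and 0.0021, edgeR). In both genes all SSM libraries lay below all MSM libraries.

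Of 20 ribosome biogenesis genes, 1 was called higher and 5 lower in SSM of ndLN, and 1 higher and 1 lower in tdLN. The list medians were -0.19 and -0.07. Among all genes tested, 12.1% were called in either direction in ndLN and 8.68% in tdLN. The gene called higher in both was Myc, a transcription factor that drives ribosome production, at 2480 to 3455 counts in SSM and 867 to 1559 in MSM (log2 fold changes 1.20 and 1.58, adjusted p = 0.0010 and 0.00048, edgeR). Polr1a, the largest subunit of RNA polymerase I, was called lower in both, at 289 to 498 in SSM and 947 to 1391 in MSM (-1.50 and -1.97, adjusted p = 0.00079 and 0.00041, edgeR). Nop2, an rRNA methyltransferase gene, was called lower in ndLN, at 699 and 924 counts in SSM and 2032 and 2274 in MSM (-1.41, adjusted p = 0.00083, edgeR). No ribosomal protein gene was called higher in SSM, and a link between Myc and the set was not tested. Of 14 genes of mTORC1 signalling to translation, 1 was called higher and 2 lower in SSM of ndLN and 0 in tdLN by edgeR. The shares of all genes called are those given above for the biogenesis genes. The gene Rheb, an activator of mTORC1, was called lower, at 5924 and 6385 counts in SSM ndLN and 10534 and 10377 in MSM ndLN (-0.77, adjusted p = 0.0025, edgeR). The elongation factor 2 kinase gene Eef2k had 1362 and 1456 counts in SSM ndLN and 305 and 249 in MSM ndLN (log2 fold change 2.35, adjusted p = 0.00032, edgeR). Eif4ebp1, whose protein holds back cap-dependent translation, was the other one called lower in ndLN, and the 1 gene of this list called between nodes in SSM, at 524 and 427 counts in ndLN and 1383 and 1291 in tdLN (1.49, adjusted p = 0.0033, edgeR).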

How the data were processed

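RNA of the sorted macrophages of each pool was converted to cDNA with a low-input SMART-Seq kit and sequenced on an Illumina HiSeq. The authors deposited raw read counts per gene and lane, made after bcl2fastq 2.20.0.422, Trimmomatic 0.36 and STAR 2.5.3a on mm10, according to the submitters' processing notes; strand setting, multimapping rule and annotation release are not given in the sources used here. Symbols and transcripts came from GENCODE M21. The 2 lanes of each library agreed within sampling noise (chi-square per degree of freedom 0.955 to 1.02, against 29.3 to 53.1 between libraries of a group on 1 lane) and were summed, leaving 8 libraries, 2 per group. The study's methods count 4 pools of 2 mice each and 16 samples, whereas the labels number the nodes 1 and 2 and mark the lanes; the 16 columns were therefore taken as 8 libraries, and each pool as 2 mice.

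Genes with at least 10 counts in all and a count in at least 2 columns were tested (21085) with edgeR 4.0.16 (R 4.3.3), TMM scaling, quasi-likelihood fits of group and pool on all libraries, and Benjamini-Hochberg adjustment over all genes. A gene was called at an adjusted p under 0.01 and a mean normalized count over 100. Normalized counts are on the scale of 1 lane. The fit includes the pool number of the labels' source as 1 term shared by all groups. Same-numbered libraries of both subsets and both kinds of node were thus taken as 1 pool. That ndLN and tdLN of the same number come from the same mice is not stated in the labels. Deviations of same-numbered libraries correlated at -0.01 to 0.15 over genes. DESeq2 1.42.0 and the alternatives given in the closing section were run beside it. Fold changes of genes at few counts depend on the prior count.

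The genes, lists and rules were chosen with earlier results of these data known. Named are the genes called, the 5 of highest count and of highest count per kilobase, the paralogue pairs, stalk and fusion genes, and of the other lists the 2 called genes of largest rise and fall; a few of these are not reported here.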

Additional observations from a re-analysis of the deposited data

Results flagged for a closer look

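Rpl39l, the mainly testis-expressed paralogue of the exit tunnel protein gene Rpl39, stood out because tdLN lay below ndLN in both pools of SSM and above it in both pools of MSM. It had 39.0 and 31.0 normalized counts in SSM ndLN, 11.6 and 10.3 in SSM tdLN, 9.83 and 12.1 in MSM ndLN and 12.03 and 15.4 in MSM tdLN. Its 2 SSM ndLN libraries thus lay above the other 6. The interaction, tested over all genes, had a log2 fold change of -1.99 and an adjusted p of 0.46 by edgeR, so it did not pass. Between SSM and MSM the log2 fold changes were 1.66 in ndLN and -0.33 in tdLN (adjusted p = 0.076 and 0.83, edgeR). None of the 50-base stretches of Rpl39l occur in another annotated gene (0.00%), and its mean over libraries, 17.7, lies below the minimum of 100 used for calls. Rpl39 itself had 701 to 2431 counts.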

How the results depend on the processing

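Called ribosomal protein genes were few, so small changes moved their number. For SSM against MSM in ndLN (2 called) and tdLN (2 called), DESeq2 gave 7 and 6, the libraries of the compared groups alone 1 and 7, library totals in place of TMM 1 and 1, scaling on the summed ribosomal protein counts 0 and 0 (both scalings chosen after seeing the data), an adjusted p under 0.05 10 and 7, and Holm adjustment 0 and 0. In the same order, the share of all genes called was 12.1% and 8.68% as reported, 17.5% and 14.4%, 4.52% and 8.71%, 12.2% and 8.73%, 6.09% and 4.57%, 18.4% and 14.3% (mean normalized count over 100), and 0.982% and 0.512%. In tdLN, DESeq2 size factors gave 1 (8.68% of all genes) and every gene with a count 1 (6.00%). Leaving out 1 library gave 1 to 48 in ndLN (5.13% to 9.59% of all genes) and 0 to 8 in tdLN (2.40% to 8.85%). Without the replicate block for the pools the counts were 2 and 3 (13.3% and 9.57% of all genes), and the block changed no direction of a set median. The set median, with 1 library left out, ranged from -0.98 to 0.03 in ndLN, -0.68 to -0.25 in tdLN, -0.29 to 0.77 between nodes in SSM and -0.012 to 0.45 in MSM. Shares without the 5 genes of highest count were 1.21% (SSM tdLN), 1.42% (MSM ndLN) and 1.68% (MSM tdLN), and per kilobase 2.86% (SSM ndLN), 2.60%, 3.18% and 3.61%. Signs turned in genes not called. With 1 library left out, the log2 fold change of Rps27 ran from -0.72 to 0.69 in ndLN and from -0.50 to 0.078 in tdLN, that of Rpl22 from -1.32 to 0.076, of Rpl22l1 from -0.0062 to 0.68, of Rplp1 from -0.87 to 0.43, of Rplp2 from -0.94 to 0.23 and of Rpl37a from -0.67 to 0.36 (all ndLN); with library totals Rplp1 stood at 0.14 and Rpl37a at 0.18. The causes were not tested. With 2 libraries per group and 10 genes of 100 counts or fewer, smaller differences were not detectable.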
